A study of Mus musculus with 8 samples.

Results

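The 9 genes described here are *Glul*, *Oat*, *Slc1a2*, *Cyp2e1*, *Cyp1a2*, *Rgn*, *Axin2*, *Lgr5* and *Tbx3*, whose transcripts mark pericentral hepatocytes, the liver cells around the central vein. They were taken by gene symbol, and all 9 were found among the 16540 symbols of the count table. Liver RNA was sequenced from 4 vehicle-treated and 4 ISOGK-treated male *Apoe*-/- mice. ISOGK is isoginkgetin, a biflavonoid of *Ginkgo biloba* that was studied as an inhibitor of ATP-citrate lyase. The ISOGK-treated mice received 20 mg/kg per day by intraperitoneal injection for 8 weeks, and the vehicle-treated mice received the solvent, given as DMSO in the study. All mice of both groups carried the *Apoe* knockout and ate a cholesterol-rich diet, called a Western diet in the series' design text, so no group was without these. Their ages are not given in the sources used here. The *Apoe* gene still gave between 163 and 342 CPM (read counts of a gene scaled to the same library total) in every library, so the genotype rests on the labels.

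Hepatocytes divide their work along the axis from the portal vein to the central vein, a pattern known as zonation. Endothelial cells of the central vein release Wnt ligands and the R-spondin RSPO3, and the resulting beta-catenin activity switches on pericentral genes in the hepatocytes nearest to them. Pericentral hepatocytes are known for making glutamine from ammonia, for breaking down drugs and toxins through cytochromes P450, and for bile acid synthesis, while periportal hepatocytes are known for the urea cycle and for making glucose.

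Between 17457106 and 24461854 reads per library were counted on genes. Levels are given as CPM after scaling by the TMM method of edgeR, and 12307 genes with enough counts, all 9 pericentral genes among them, entered the quasi-likelihood test of edgeR with Benjamini-Hochberg adjustment. A gene was called when its adjusted p was under 0.05. The liver markers *Alb*, *Apoa1*, *Apob*, *Ttr*, *Trf*, *Fgb*, *Serpina1a* and *Hnf4a* were present in every library, and of these 8, 0 were called by edgeR, DESeq2 or limma-voom and 0 had an unadjusted p under 0.05 in edgeR. *Fgb* was uneven, with 16848 CPM in ISOGK-treated mouse 4 and 5799 to 7369 CPM in all other mice. Of all tested genes, edgeR called 7.55%. Vehicle-treated mouse 4 stood apart in holding skeletal muscle transcripts. Its 10 muscle markers summed to 80.5 CPM, against at most 0.584 CPM in any other library, and the calls of the 9 genes are therefore also given without this mouse. Of 15 other called genes named in the text, 6 lost their call without it (*Lrp5*, *Slc25a22*, *Slc38a3*, *Glud1*, *Aldh4a1* and *Sox9*, with edgeR adjusted p from 0.0603 to 0.108). Such losses were not particular to this mouse. Among all genes, 929 were called with all mice, and 511, 379, 496 and 550 without vehicle-treated mouse 1, 2, 3 and 4. Without ISOGK-treated mouse 1, 2, 3 and 4 the counts were 985, 471, 1235 and 679, so the number of calls did not fall for every mouse.

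Of the 9 pericentral genes, 1 was called higher and 2 were called lower with ISOGK. *Oat* rose, *Cyp1a2* and *Rgn* fell, and the means of *Glul* and *Cyp2e1*, both widely used pericentral markers, were 3.39% and 2.13% above those of the vehicle group, within the spread between mice. Among all tested genes, 7.55% were called, with 4.11% higher and 3.44% lower. At the thresholds of the study, which also ask for an absolute log2 fold change over 1, 0 of the 9 genes were called by edgeR, DESeq2 or limma-voom, against 1.63% of all tested genes in edgeR, while 5 of the 9 had an unadjusted p under 0.05 in edgeR. The share of all tested genes under that unadjusted limit is not given here. Counts at an unadjusted p are therefore descriptions only, throughout the text. The median log2 fold change of the 9 genes was 0.03, beside 0.00176 for all tested genes. Since the libraries come from whole liver, fewer pericentral cells and less RNA per pericentral cell cannot be told apart.

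**Figure D1:**
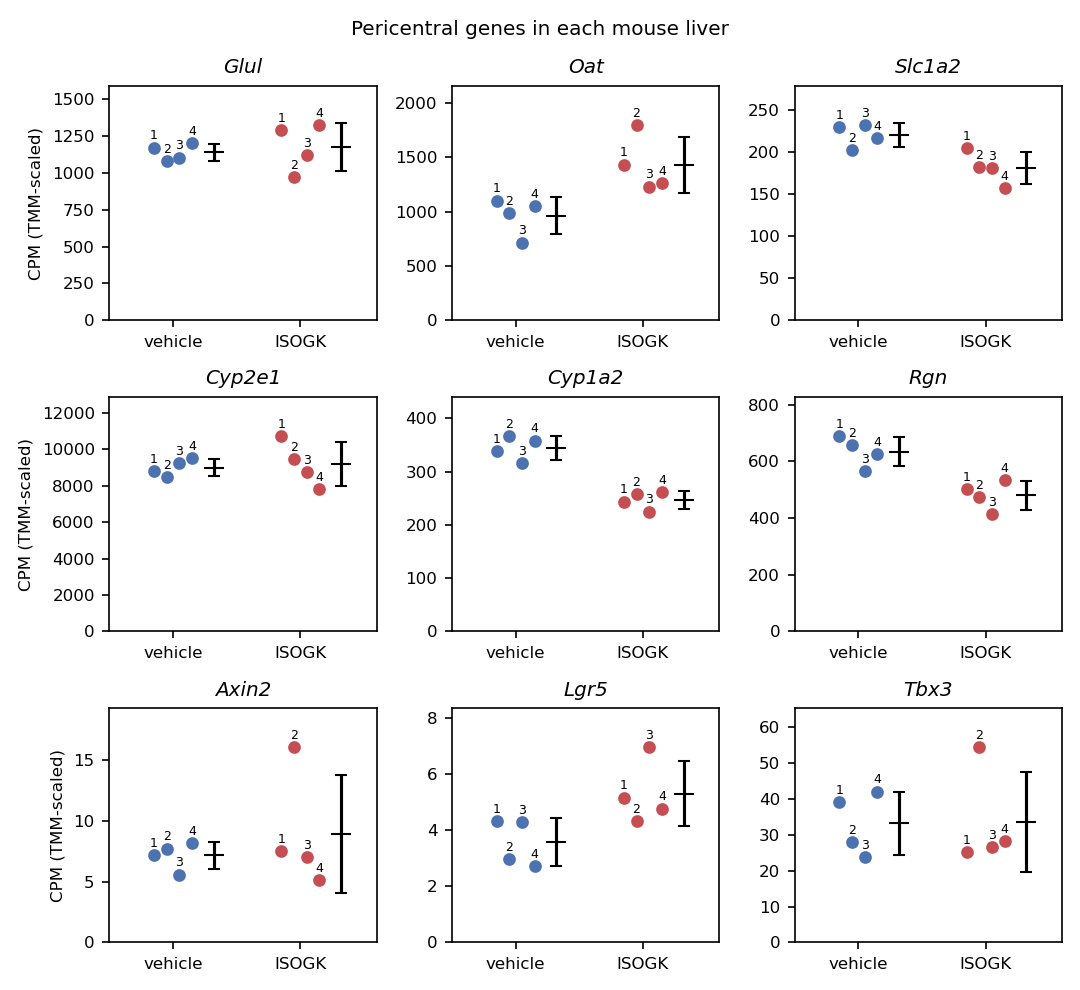
CPM (TMM-scaled, linear axes from 0) of each of the 9 pericentral genes in each vehicle-treated (blue) and ISOGK-treated (red) mouse, numbered by replicate, with the mean and SD (n = 4) beside each group. The groups are apart for *Oat*, *Cyp1a2* and *Rgn*, nearly touch for *Lgr5*, and overlap for the other 5 genes, with ISOGK-treated mouse 2 alone at the top for *Axin2* and *Tbx3*.

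*Glul*, *Oat* and *Slc1a2* act on glutamate. *Glul* encodes glutamine synthetase, which joins ammonia to glutamate and is confined to the hepatocytes next to the central vein. The gene lies on chromosome 1 from 153899944 to 153909723 (plus strand, GRCm38). *Glul* had 1170, 1077, 1101 and 1201 CPM in vehicle-treated mice 1 to 4 and 1289, 971, 1120 and 1322 CPM in ISOGK-treated mice 1 to 4. The ISOGK-treated mice lay on both sides of the vehicle-treated mice, with mouse 2 below all of them and mice 1 and 4 above. The means were 1137 ± 58 and 1176 ± 163 CPM (SD, n = 4 per group), and the log2 fold change was 0.048, with a 95% confidence interval from -0.20 to 0.29 (edgeR adjusted p = 0.836). With scaling by library size alone the sign turned, to -0.086.

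*Oat* encodes ornithine aminotransferase, a mitochondrial enzyme that turns ornithine into a precursor of glutamate. It lies on chromosome 7 from 132557478 to 132576398 (minus strand). *Oat* had 1101, 984, 715 and 1052 CPM in the vehicle-treated mice and 1432, 1795, 1230 and 1262 CPM in the ISOGK-treated mice. Every ISOGK-treated mouse was above every vehicle-treated mouse, with vehicle-treated mouse 3 lowest and ISOGK-treated mouse 2 highest. The mean rose by 48.5%, from 963 ± 172 to 1430 ± 259 CPM (mean ± SD of 4 mice), which is 0.57 ± 0.16 (SE) as log2 fold change (adjusted p = 0.0461 in edgeR). This call was lost in 9 of 15 alternative fits, among them limma-voom (adjusted p = 0.0527), library size alone (edgeR adjusted p = 0.0871) and the fit without vehicle-treated mouse 4 (log2 fold change 0.62, edgeR adjusted p = 0.0748), while the log2 fold change stayed between 0.44 and 0.64. The annotated span of *Oat* overlaps that of *Fgfr2* on the same strand, a gene with 294 to 740 counts per library.

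*Slc1a2* encodes a glutamate transporter that is best known from brain and that takes glutamate into pericentral hepatocytes. The gene covers chromosome 2 from 102658659 to 102790784 (plus strand). *Slc1a2* had 229.6, 202, 232 and 216 CPM in the vehicle-treated mice and 204, 182, 181 and 157 CPM in the ISOGK-treated mice. ISOGK-treated mouse 1 was above vehicle-treated mouse 2, and the other 3 ISOGK-treated mice were below the whole vehicle group. The means were 219.8 ± 13.9 and 181 ± 19.3 CPM (SD, n = 4 per group), and the log2 fold change of -0.28 did not pass the test (95% confidence interval -0.50 to -0.06, edgeR adjusted p = 0.114). Its adjusted p was between 0.0527 and 0.243 over 15 alternative fits.

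*Cyp2e1* and *Cyp1a2* encode cytochromes P450. *Cyp2e1*, which oxidizes ethanol, acetone and small solvents, lies on chromosome 7 from 140763739 to 140774987 (plus strand) and took between 0.691% and 1.04% of all counted reads of a library. It had 8791, 8481, 9245 and 9515 CPM in the vehicle-treated mice and 10737, 9472, 8759 and 7830 CPM in the ISOGK-treated mice. The highest and the lowest of the 8 mice were both ISOGK-treated. The means were 9008 ± 461 and 9200 ± 1226 CPM (SD, n = 4 per group), and the log2 fold change was 0.030, with an interval (95% confidence) from -0.21 to 0.27 (edgeR adjusted p = 0.900). Library size alone turned its sign, to -0.096.

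*Cyp1a2*, which metabolizes caffeine and aromatic amines and is a target of the aryl hydrocarbon receptor, lies on chromosome 9 from 57676937 to 57683703 (minus strand). *Cyp1a2* had 338, 367, 316 and 358 CPM in the vehicle-treated mice and 243, 258, 225 and 261 CPM in the ISOGK-treated mice. All ISOGK-treated mice were below all vehicle-treated mice, with 261 CPM in the highest ISOGK-treated and 316 CPM in the lowest vehicle-treated mouse. The mean fell by 28.4%, from 345 ± 22.5 to 247 ± 16.8 CPM (mean ± SD of 4 mice), which is -0.48 ± 0.094 (SE) as log2 fold change (adjusted p = 0.0101 in edgeR). *Cyp1a2* was called in all 15 alternative fits, with log2 fold changes from -0.61 to -0.45 and adjusted p-values from 5.44e-06 to 0.0464, and without vehicle-treated mouse 4 its log2 fold change was -0.46 (edgeR adjusted p = 0.0364). Its close relative *Cyp1a1* had 0.301 to 1.21 CPM in all libraries.

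*Rgn* encodes regucalcin, a calcium-binding protein that is also the gluconolactonase of vitamin C synthesis, and lies on chromosome X from 20549787 to 20562089 (plus strand). *Rgn* had 689.7, 659, 566 and 626 CPM in the vehicle-treated mice and 503, 474, 413 and 534 CPM in the ISOGK-treated mice. The groups did not overlap, and mouse 3 was lowest in each. The mean fell by 24.3%, from 635 ± 52.7 to 481 ± 51.6 CPM (mean ± SD of 4 mice), which is -0.40 ± 0.11 (SE) as log2 fold change (adjusted p = 0.0428 in edgeR). The call was lost in 7 of 15 alternative fits, each of which left out 1 mouse, with an adjusted p of 0.0872 and a log2 fold change of -0.41 without vehicle-treated mouse 4.

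*Axin2*, *Lgr5* and *Tbx3* are direct targets and regulators of Wnt signaling and were the least abundant of the 9 genes. *Axin2* encodes a scaffold of the complex that destroys beta-catenin and acts as a feedback inhibitor of the pathway (chromosome 11, 108920349 to 108950783, plus strand). It had 7.18, 7.71, 5.57 and 8.13 CPM in the vehicle-treated mice and 7.50, 16.04, 7.01 and 5.13 CPM in the ISOGK-treated mice. ISOGK-treated mouse 2 was far above all others, and the remaining ISOGK-treated mice overlapped the vehicle group. The log2 fold change of 0.32 (95% confidence interval -0.39 to 1.03, edgeR adjusted p = 0.583) became -0.12 without ISOGK-treated mouse 2.

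*Lgr5* encodes a receptor for R-spondins that strengthens Wnt signals (chromosome 10, 115450311 to 115587780, minus strand). It rested on 61 to 110 counts per vehicle library and 82 to 123 per ISOGK library. *Lgr5* had 4.32, 2.97, 4.28 and 2.72 CPM in the vehicle-treated mice and 5.15, 4.33, 6.95 and 4.77 CPM in the ISOGK-treated mice. The lowest ISOGK-treated mouse was only just above the highest vehicle-treated mouse, and with library size alone the groups overlapped. The means were 3.57 ± 0.845 and 5.30 ± 1.15 CPM (SD, n = 4 per group), and the log2 fold change of 0.57 did not pass the test (95% confidence interval 0.12 to 1.02, edgeR adjusted p = 0.120), nor did it in any of 15 alternative fits, whose adjusted p was between 0.0718 and 0.277.

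*Tbx3* encodes a T-box repressor known as a beta-catenin target in liver (chromosome 5, 119670669 to 119684724, plus strand). It had 39.2, 27.9, 23.9 and 42.1 CPM in the vehicle-treated mice and 25.1, 54.5, 26.5 and 28.2 CPM in the ISOGK-treated mice. As for *Axin2*, ISOGK-treated mouse 2 was highest, and the other 3 ISOGK-treated mice lay within the range of the vehicle group. The log2 fold change was 0.016 (95% confidence interval -0.63 to 0.67, edgeR adjusted p = 0.981), and it was -0.32 without ISOGK-treated mouse 2 (edgeR adjusted p = 0.377). The sign for *Tbx3* also turned with library size alone (-0.11), with limma-voom (-0.019), with the replicate number as a block (-0.027) and without vehicle-treated mouse 2 (-0.061) or 3 (-0.12).

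**Figure D2:**
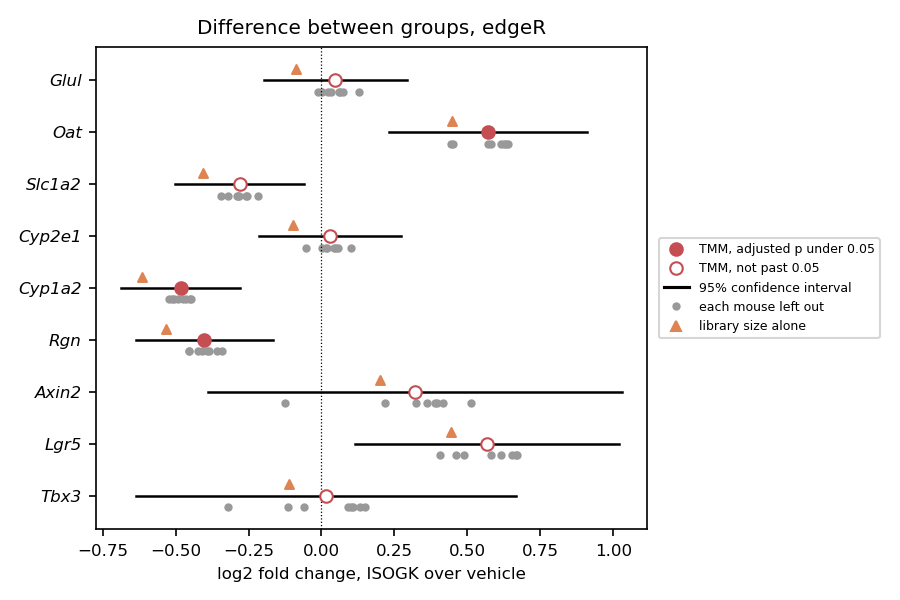
Log2 fold change (ISOGK over vehicle) of each pericentral gene from edgeR, with its 95% confidence interval (black line), the fits that each left out 1 mouse (grey points) and scaling by library size alone (orange triangle). The filled points of *Oat* (0.57), *Cyp1a2* (-0.48) and *Rgn* (-0.40) have an adjusted p under 0.05, and the intervals of *Glul*, *Cyp2e1*, *Axin2* and *Tbx3* include 0.

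In 4 of the 9 genes (*Oat*, *Cyp1a2*, *Rgn* and *Lgr5*) the mice of the groups did not overlap, 2 of them higher and 2 lower with ISOGK. Over all tested genes 15.3% had no overlap, 7.92% higher and 7.36% lower. With library size alone *Oat* and *Lgr5* overlapped and *Slc1a2* did not. Groups of 4 without overlap always give the smallest p that a two-sided exact permutation test can reach here (0.0286), so that test adds nothing to the separation of these genes. On log2 CPM the same exact test gave p = 0.0571 for *Slc1a2*. Scaling by library size alone moved the median of all tested genes by -0.13 on the log2 scale. Relative to that shift, the log2 fold changes under library size alone were 0.045 for *Glul*, 0.035 for *Cyp2e1*, 0.58 for *Oat*, -0.48 for *Cyp1a2*, -0.40 for *Rgn* and -0.28 for *Slc1a2*.

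The RefSeq promoter table (GRCm38.p6, 250 bases before to 50 after the start) held 6 of the 9 genes, and *Lgr5*, *Tbx3* and *Rgn* were not in it. Each window was searched on both strands for the TCF/LEF word CTTTGAT and its variants with the endings TT (CTTTGTT) or AA (written as CTTTGAA), through which beta-catenin acts, and for GCGTG, the core letters of the aryl hydrocarbon receptor site. The windows of *Glul* and *Cyp2e1*, which were not called, and of *Cyp1a2* and *Oat*, which moved in opposite directions, are printed in lower case, with TCF/LEF words in capitals. They lie at chr1:153899679-153899978 (plus strand), chr7:140763569-140763868 (plus strand), chr9:57683606-57683905 (minus strand) and chr7:132576349-132576648 (minus strand).
Glul: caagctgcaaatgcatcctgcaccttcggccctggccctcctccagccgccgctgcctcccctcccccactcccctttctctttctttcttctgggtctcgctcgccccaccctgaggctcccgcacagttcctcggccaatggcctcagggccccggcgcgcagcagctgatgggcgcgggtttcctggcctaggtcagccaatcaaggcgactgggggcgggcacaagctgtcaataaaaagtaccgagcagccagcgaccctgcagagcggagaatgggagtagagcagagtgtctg
Cyp2e1: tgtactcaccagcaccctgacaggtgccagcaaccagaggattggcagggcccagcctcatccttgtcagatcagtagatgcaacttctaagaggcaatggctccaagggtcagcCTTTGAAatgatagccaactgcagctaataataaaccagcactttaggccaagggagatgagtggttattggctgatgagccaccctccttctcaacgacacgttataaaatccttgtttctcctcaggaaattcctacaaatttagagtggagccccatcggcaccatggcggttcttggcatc
Cyp1a2: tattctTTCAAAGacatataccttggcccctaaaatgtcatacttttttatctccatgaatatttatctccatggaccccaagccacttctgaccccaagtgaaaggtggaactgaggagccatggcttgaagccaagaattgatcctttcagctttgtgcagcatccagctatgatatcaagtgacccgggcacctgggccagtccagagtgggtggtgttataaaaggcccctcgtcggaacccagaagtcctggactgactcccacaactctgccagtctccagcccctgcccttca
Oat: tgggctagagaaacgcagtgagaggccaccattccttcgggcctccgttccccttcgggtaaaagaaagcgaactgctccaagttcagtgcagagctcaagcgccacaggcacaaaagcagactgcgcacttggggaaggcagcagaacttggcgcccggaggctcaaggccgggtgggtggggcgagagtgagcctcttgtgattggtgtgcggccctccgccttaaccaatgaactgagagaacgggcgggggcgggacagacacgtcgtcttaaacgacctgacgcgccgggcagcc
*Cyp2e1* held CTTTGAA, *Cyp1a2* held the same letters on the opposite strand, and *Slc1a2* held CTTTGAT on the opposite strand, whereas *Glul*, *Oat* and *Axin2* held none of the 3 words. The *Slc1a2* window lies inside the span that GENCODE gives the gene. Of 32851 promoters, 13.9% held at least 1 of the 3 TCF/LEF words, and 32.4% held GCGTG, which was in none of the 6 windows. The windows of *Glul* and *Oat* had 64.3% and 61.7% G and C, against 49.7% for *Cyp2e1* and *Cyp1a2* and 45.7% for *Slc1a2*.

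To compare levels between genes, CPM were divided by the length of all annotated exons of a gene. *Cyp2e1* was highest with 4174 ± 214 CPM per kilobase in the vehicle group (SD, n = 4), and *Oat*, *Rgn* and *Glul* followed with 408 ± 72.9, 395 ± 32.8 and 342 ± 17.4. The vehicle-treated mice of *Oat* overlapped with those of *Rgn* and of *Glul*. The genes were not compared within each mouse, so the overlap of ranges does not show that their levels were equal. *Cyp1a2* had 171 ± 11.2, *Slc1a2* 16.7 ± 1.06, *Tbx3* 5.02 ± 1.32, *Axin2* 1.30 ± 0.204 and *Lgr5* 0.348 ± 0.0823 CPM per kilobase, with no overlap between neighbours. In the ISOGK group the order was the same except that *Glul* (354 ± 49) stood above *Rgn* (299 ± 32.1), and the mice of these genes still overlapped, while those of *Oat* (606 ± 110) were all above those of *Glul*.

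**Figure D3:**
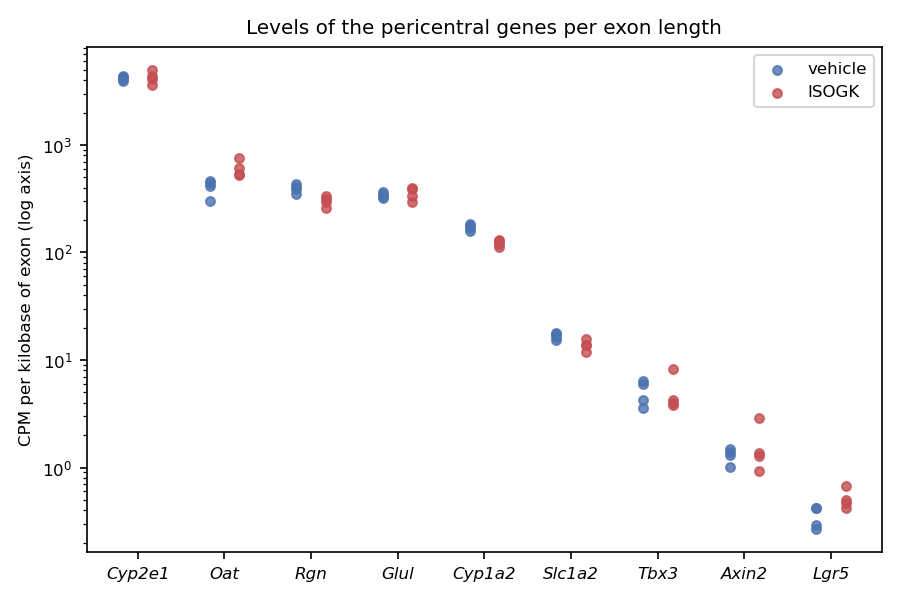
Level of each pericentral gene in each mouse, in CPM per kilobase of exon on a log axis, with vehicle in blue and ISOGK in red. *Cyp2e1* is highest, *Oat*, *Rgn* and *Glul* share the range from 257 to 761, and *Lgr5* is lowest, between 0.265 and 0.678.

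The spread between mice differed among the genes. Within the vehicle group the coefficient of variation was 5.10% for *Glul*, 5.12% for *Cyp2e1* and 6.52% for *Cyp1a2*, against 26.3% for *Tbx3*, and its median over the 9 genes was 8.30%, beside 11.5% for all tested genes. With ISOGK the coefficient of variation of *Cyp1a2* was 6.81%, that of *Glul* was 13.8%, that of *Cyp2e1* 13.3% and that of *Axin2* 54.4%. Its median with ISOGK was 13.8% over the 9 genes and 15.8% over all tested genes, so both medians were above those of the vehicle group. No mouse was high or low throughout. ISOGK-treated mouse 2 had the highest *Oat*, *Axin2* and *Tbx3* of its group and the lowest *Glul* and *Lgr5*, and vehicle-treated mouse 3 was lowest of its group in 5 genes and highest in 1.

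The calls among other genes of Wnt signaling are given beside the share of all tested genes. Of 29 tested genes for ligands, receptors, the destruction complex and nuclear effectors, 1 was higher and 0 were lower in edgeR. This is 3.45% called, beside 7.55% of all tested genes. DESeq2 called 3 of 30 genes of the list (2 higher and 1 lower), where it called 1397 of all 16540 genes. The median of the list was 0.054 as log2 fold change. The edgeR call was *Lrp5*, a Wnt co-receptor, which rose from 86.0 ± 8.35 to 119 ± 20.1 CPM, or 0.47 on the log2 scale (adjusted p = 0.0434 in edgeR). The mice of the groups did not overlap, but the call was lost in 10 of 15 alternative fits. These were limma-voom (adjusted p = 0.0532), library size alone (edgeR adjusted p = 0.123) and the replicate number as a block. The others were the fits that left out any mouse other than ISOGK-treated mouse 1 (edgeR adjusted p from 0.0524 to 0.126). *Apc* and *Tcf7l1* had log2 fold changes of -0.43 each (edgeR adjusted p = 0.0526 and 0.0731), and *Dvl2* had 0.61 (edgeR adjusted p = 0.0985). The ligands of the central vein were scarce, and their groups overlapped. *Wnt2* had 4.34 ± 0.654 and 3.80 ± 1.12 CPM, *Wnt9b* had 1.30 ± 0.225 and 1.67 ± 0.478, and *Rspo3* had 4.38 ± 0.414 and 3.76 ± 1.14 in the vehicle and ISOGK groups (SD, n = 4 per group; edgeR adjusted p = 0.639, 0.455 and 0.567). *Ctnnb1*, which encodes beta-catenin, had 194 ± 10 and 183 ± 6.58 CPM (log2 fold change -0.08, edgeR adjusted p = 0.608), and *Tcf7l2*, its main nuclear partner in liver, had 5.97 ± 0.907 and 6.20 ± 0.875 CPM (edgeR adjusted p = 0.870).

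Of 9 tested Wnt feedback and target genes other than the 9 described, 0 were called by edgeR, DESeq2 or limma-voom and 0 had an unadjusted p under 0.05 in edgeR. Over all tested genes, edgeR called 7.55%. The smallest adjusted p was that of *Znrf3*, a ubiquitin ligase that removes Wnt receptors, with 9.98 ± 1.36 and 8.62 ± 0.609 CPM (log2 fold change -0.21, edgeR adjusted p = 0.357). *Tcf7*, *Rnf43* and *Ccnd1* had log2 fold changes of -0.32, -0.27 and -0.25, with edgeR adjusted p-values of 0.374, 0.377 and 0.494. The median of this list was -0.17, below that of all tested genes.

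Among 35 other genes known as pericentral, 7 were higher and 11 were lower, which is 51.4% called, beside 7.55% of all tested genes. Their median was -0.13 as log2 fold change. This list was compiled with results of these data known and holds genes with large changes, so its share is given as a description. *Cyp4a14*, a fatty acid hydroxylase and target of PPAR alpha, rose from 1255 ± 171 to 5458 ± 714 CPM (log2 fold change 2.12), and *Aldh3a2*, a fatty aldehyde dehydrogenase, rose from 244 ± 31.8 to 379 ± 38.2 CPM (0.64). *Gstm3*, a glutathione S-transferase, fell from 26.6 ± 11.4 to 5.46 ± 0.357 CPM (log2 fold change -2.28), and *Car3*, a carbonic anhydrase, fell from 867 ± 181 to 139 ± 69.3 CPM (-2.65), each of the 4 with an edgeR adjusted p of at most 0.00805. Reads of the *Cyp2c*, *Cyp4a* and *Gstm* genes of this list could have been split between close copies. All 4 kept their calls in 15 of 15 alternative fits. The number of calls in the list was 6 to 14 when each mouse was left out in turn.

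The periportal genes moved in both directions as well. Of 28 tested, 5 were higher and 2 were lower, which is 25.0% called, beside 7.55% of all tested genes. The median of the list was 0.18 on the log2 scale. The list was chosen with earlier results of these data known, so its share is a description. *Sdsl*, a serine dehydratase-like gene, rose from 8.51 ± 0.856 to 27.5 ± 8.9 CPM, *Asl*, the argininosuccinate lyase of the urea cycle, from 474 ± 44.8 to 935 ± 223 CPM, and *Cyp17a1*, a steroid hydroxylase, from 15.8 ± 0.761 to 57.1 ± 18.3 CPM, while *Hsd17b6*, a steroid dehydrogenase, fell from 162 ± 33.5 to 60.2 ± 23.9 CPM (means with SD of 4 mice each, and edgeR adjusted p = 0.00117, 0.00336, 0.000689 and 0.0209). *Cyp2f2*, the cytochrome used most often as a periportal marker, had 858 ± 47.7 and 764 ± 82.8 CPM (log2 fold change -0.17, edgeR adjusted p = 0.348). *Sdsl*, *Asl* and *Cyp17a1* kept their calls in 15 of 15 alternative fits. The call of *Hsd17b6* was lost in 4, with the replicate number as a block (edgeR adjusted p = 0.0865) and without vehicle-treated mouse 2, vehicle-treated mouse 3 or ISOGK-treated mouse 4 (0.0654, 0.0553 and 0.0611). The number of periportal calls was 3 to 9 when each mouse was left out in turn.

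Around the reactions of *Glul* and *Oat*, 24 genes of glutamine, glutamate, ornithine and proline handling were tested, with 2 higher and 3 lower. This is 20.8% called, beside 7.55% of all tested genes, and the list had its median at 0.053 on the log2 scale. It too was chosen with earlier results of these data known, so its share is a description. *Asns*, the asparagine synthetase that consumes glutamine, rose from 1.06 ± 0.409 to 11.5 ± 6.58 CPM (log2 fold change 3.45), and *Slc25a22*, a mitochondrial glutamate carrier, rose from 188 ± 26.9 to 286 ± 56.7 CPM (0.61). *Slc38a3*, a glutamine transporter of hepatocytes, fell from 1062 ± 131 to 767 ± 82 CPM (log2 fold change -0.47, edgeR adjusted p = 0.0333), and *Glud1*, the glutamate dehydrogenase, fell from 922 ± 46.3 to 723 ± 56 CPM (-0.35, edgeR adjusted p = 0.0452). *Aldh4a1*, which completes the path from proline and ornithine to glutamate, was the third gene to fall, by 0.49 on the log2 scale (adjusted p = 0.0470 in edgeR). *Asns* kept its call in 15 of 15 alternative fits, and the other 4 did not. *Slc25a22* lost its call in 6, with library size alone, with the replicate number as a block and without vehicle-treated mouse 2, 3 or 4 or ISOGK-treated mouse 2 (edgeR adjusted p from 0.0603 to 0.102). *Slc38a3* lost it in 6, with the block and without vehicle-treated mouse 2, 3 or 4 or ISOGK-treated mouse 2 or 4 (0.0542 to 0.111). *Glud1* lost it in 9, with no filter beyond 1 count, with the block and when any mouse other than ISOGK-treated mouse 3 was left out (0.0509 to 0.132). *Aldh4a1* lost it in 7, when any mouse other than ISOGK-treated mouse 2 was left out (0.0713 to 0.134). The number of calls in the list was 1 to 4 when each mouse was left out in turn.

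Beside the fall of *Cyp1a2*, 9 tested genes of the aryl hydrocarbon receptor, its partners and its other targets had 0 calls by edgeR, DESeq2 or limma-voom and 0 with an unadjusted p under 0.05 in edgeR. The share called among all tested genes was 7.55% in edgeR. *Cyp1a1*, the target most often used as a readout of the receptor, had 0.849 ± 0.433 and 0.595 ± 0.22 CPM (log2 fold change -0.53, edgeR adjusted p = 0.506), and *Ahr*, the receptor itself, had 29.3 ± 3.29 and 33.0 ± 8.25 CPM (0.17, edgeR adjusted p = 0.547). *Tiparp*, *Ugt1a6a* and *Ugt1a6b* had log2 fold changes of -0.40, -0.14 and -0.13, with edgeR adjusted p-values between 0.289 and 0.430. Reads of *Ugt1a6a* and *Ugt1a6b* could have been split between these copies.

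**Figure D4:**
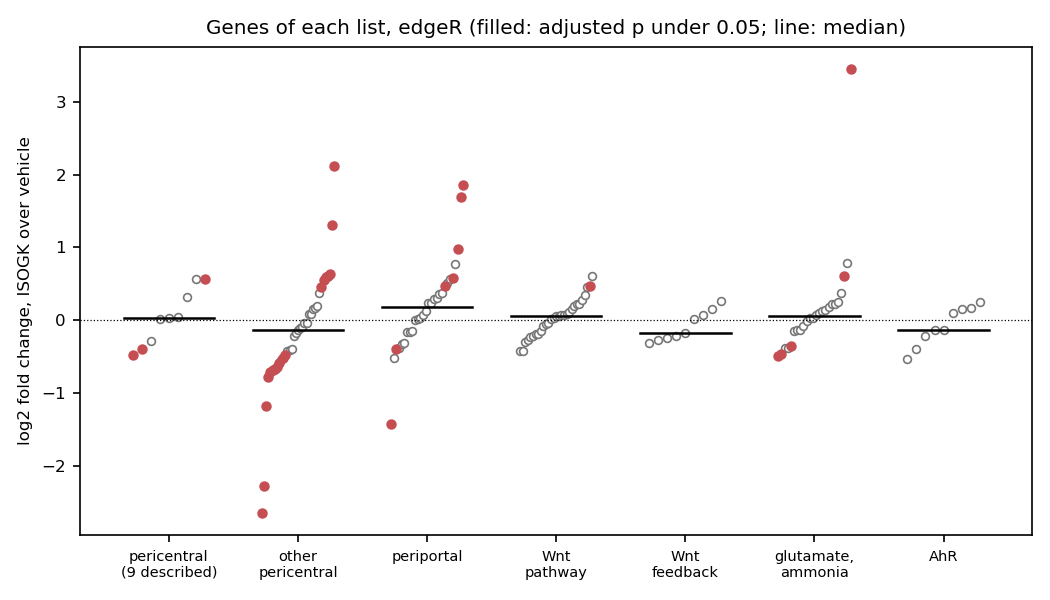
Log2 fold change (ISOGK over vehicle) of every tested gene of 7 lists, 1 point per gene, filled where the edgeR adjusted p is under 0.05, with the median of each list as a line. The Wnt, Wnt feedback and aryl hydrocarbon receptor (AhR) lists hold 1, 0 and 0 filled points, and the other pericentral list holds 18, on both sides of 0. Of all tested genes, 7.55% were called.

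Markers of other liver cells were set beside these results, and beside the 7.55% of all tested genes that edgeR called. The 5 cholangiocyte markers summed to 27.5 to 34.8 CPM in vehicle-treated and 28.2 to 69.1 CPM in ISOGK-treated mice, highest in ISOGK-treated mouse 2, the mouse with the highest *Axin2*, *Tbx3* and *Oat*. All 5 had a positive log2 fold change, with 1 called by edgeR and 1 by limma-voom, 2 by DESeq2 and 4 at an unadjusted p under 0.05, and the edgeR call was *Sox9* (0.51, adjusted p = 0.0494), which was lost in 12 of 15 alternative fits, among them every fit without 1 of the mice. The 6 Kupffer cell markers summed to 924 to 1195 CPM with vehicle and 733 to 958 CPM with ISOGK. Of these, 5 of 6 had a negative log2 fold change, with a median of -0.65, and 0 were called by edgeR, 0 by limma-voom and 1 by DESeq2, with 1 at an unadjusted p under 0.05. Single mice weighed on this median. *Marco*, *Adgre1* and *Timd4* had 170, 143 and 37.1 CPM in vehicle-treated mouse 1, against at most 57.6, 73.2 and 17.4 in any other mouse. *Vsig4* had 5.34 CPM in ISOGK-treated mouse 4 and at least 75.0 in every other mouse. *Cd5l* had 577 to 667 CPM with vehicle and 407 to 560 CPM with ISOGK. The sums of the 11 endothelial markers (279 to 307 and 266 to 317 CPM) and of the 7 stellate cell markers (277 to 388 and 213 to 412 CPM) overlapped between the groups. For the endothelial list 0 genes were called by any of the 3 tools and 0 had an unadjusted p under 0.05, with 6 of 11 positive and a median of 0.074. For the stellate list 6 of 7 had a negative log2 fold change, with a median of -0.10, and 0 were called by edgeR, 0 by limma-voom and 1 by DESeq2, with 1 at an unadjusted p under 0.05. The sums of 5 lymphocyte and leukocyte markers, of which 2 had enough counts to be tested, overlapped too (6.83 to 18.01 and 5.34 to 14.1 CPM). No marker of these lists was at 0 in all libraries. The part of these cells in the values of the pericentral genes was not tested.

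The genes whose pattern over the 8 mice was most like that of *Glul*, after each group's mean was taken out of log2 CPM, were *Asb6*, *Rbis* and *Cdkn2aipnl*, with Pearson's r of 0.97 each and Spearman's rho of 0.95, 0.93 and 0.98. For *Cyp2e1* they were *Adgrv1*, *Kcnk5* and *Acy3*, with r of 0.98, 0.96 and 0.95 and rho of 1.0, 0.93 and 0.90, and *Adgrv1* rested on 0.396 to 1.37 CPM. These are the highest values among all tested genes and are given as a description of 8 libraries.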

How the data were processed

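Liver RNA of 4 vehicle-treated and 4 ISOGK-treated *Apoe*-/- mice was sequenced, 1 library per numbered label. With HISAT2 and StringTie the authors turned single-end reads, aligned to mm10 per the submitters' processing notes, into raw counts per gene, which were deposited without normalization. The release of the annotation and the use of strand are not given in the sources used here. Columns named DMSO were taken as the vehicle group, after the study's scheme. The p-values of edgeR set the difference between the groups against the spread between these libraries. Pairs of libraries of a group differed by more than sampling noise (chi-square per gene 18.1 to 99.8, where about 1 is expected). The pairs that held ISOGK-treated mouse 4 were the highest, with 99.8, 87.8 and 85.9, and all other pairs had at most 67.1. This library also had the lowest TMM factor (0.883). The cause was not tested.

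From the deposited counts, genes were filtered with filterByExpr (minimum count of 10, minimum total of 15), scaled with TMM and tested with the robust quasi-likelihood test of edgeR 4.0.16 in R 4.3.3, with all 8 libraries and no covariates. Standard errors and intervals were derived from the F statistic. Log2 CPM had a prior count of 2. DESeq2 1.42.0, limma-voom (limma 3.58.1), other scalings and filters, the replicate number as a block and each mouse left out were alternatives. The methods were tested on simulated counts. GENCODE M21 (GRCm38) gave coordinates and exon lengths. Intervals on counts without molecular identifiers cover the counting and the spread between libraries only.

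The genes, lists and tests were chosen with earlier results of these data known. The text names the 9 genes, the 4 genes of each list with the smallest p (except 1 gene, which is not reported here), 8 genes by name, *Apoe*, *Sox9* and *Aldh4a1* (both chosen after their values were seen), the cell type markers, and the 3 genes most like *Glul* and *Cyp2e1*.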

Additional observations from a re-analysis of the deposited data

Results flagged for a closer look

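*Tbx3* in ISOGK-treated mouse 2 stood apart, with 54.5 CPM where the rest of its group had 25.1 to 28.2 CPM. Its distance from the next mouse made up 0.894 of the group's range, above Dixon's critical value for 4 samples. Vehicle-treated mouse 4 passed the same limit for the number of genes with at least 1 count, 15369 where the rest of its group had 14997 to 15042 (0.879 of the range), and for its skeletal muscle markers, 80.5 CPM in sum (0.993 of the range). In all, 36 sets of 4 values were looked at and 3 passed the limit. Chance alone passes about 1 in 20, or 1.8 of 36.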

How the results depend on the processing

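*Cyp1a2* was called in all 15 alternatives, *Oat* in 6 and *Rgn* in 8, and the other 6 pericentral genes in none. With each mouse left out in turn, 1 to 2 pericentral genes and 379 to 1235 of all genes were called (929 with all mice), with 0 to 1 Wnt pathway genes, 6 to 14 other pericentral genes, 3 to 9 periportal genes and 1 to 4 glutamate genes. DESeq2 called 1397 genes in all, 3 of the Wnt pathway and 11 periportal. Of the Wnt pathway, library size alone called 2 genes, no filter beyond 1 count 2 and limma-voom 0. Library size alone moved the share of higher genes among all calls from 54.5% to 24.6% (262 higher and 804 lower). Same-numbered mice did not deviate together (r from -0.014 to 0.085, with 2 of 8 libraries closest to their own number). With the replicate number as a block, 827 genes and 3 pericentral genes were called, 0 of the Wnt pathway and 3 of the glutamate list. The causes of these shifts were not tested.

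Signs turned for genes near 0. *Tbx3* had a log2 fold change of -0.019 with limma-voom, -0.11 with library size alone, -0.027 in the fit with the block, and -0.061, -0.12 and -0.32 without vehicle-treated mouse 2, vehicle-treated mouse 3 and ISOGK-treated mouse 2 (up to 0.15 without the others). Scaling by library size alone gave -0.096 for *Cyp2e1*, -0.086 for *Glul* and -0.072 for *Tcf7l2*. When single mice were left out, *Axin2* ranged from -0.12 (without ISOGK-treated mouse 2) to 0.51, *Cyp2e1* from -0.052 (without ISOGK-treated mouse 1) to 0.10, *Glul* from -0.013 (without ISOGK-treated mouse 4) to 0.13, *Tcf7l2* from -0.030 (without ISOGK-treated mouse 3) to 0.16, and *Ahr* from -0.012 (without ISOGK-treated mouse 3) to 0.27. *Lgr5* had the lowest counts of the 9 genes, 61 to 123 per library.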
